A study of Mus musculus with 48 samples.

Results

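Klf2, S1pr1, Tcf7, Lef1, Satb1, Dapl1 and Igfbp4 make up a set of 7 genes that naive and recirculating T cells express, chosen by gene symbol from the 53345 genes measured. All 7 passed the filter on low counts in every comparison. The authors sequenced polyA RNA of Tregs, the regulatory CD4 T cells that express Foxp3, from mouse spleens in 32 libraries, and of Tcons, the flow-through of the same CD25 selection, in 16 libraries from mice that also gave a Treg library. All mice were female C57BL/6 of 8 to 12 weeks. Each was injected with 500 µg of antibody on day -1 and again on day 0, either an isotype control or one blocking MHC II, through which CD4 T cells are shown antigen for their T cell receptor (TCR). On day 0 each mouse also received PBS or 25 µg of an Fc-fused human IL-2 under the skin, and spleens were taken on day 4. The IL-2 was the wild-type form (WT IL-2) or an attenuated mutein, H16R or 3x. The 4 treatments and 2 antibodies made 8 Treg groups with 4 libraries each and 8 Tcon groups with 2 libraries each. The Treg groups are described as 4 mice each, processed as separate samples, but in the isotype WT IL-2 Treg group 2 libraries carry the same mouse label and are called replicates 3a and 3b.

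T cells that have not met antigen leave and re-enter lymphoid organs continually. Klf2, a zinc finger transcription factor, holds T cells quiescent and drives transcription of S1pr1, the receptor for sphingosine 1-phosphate (S1P) that guides lymphocytes out of lymphoid organs. Tcf7, which encodes TCF-1, and Lef1 are the closely related HMG box factors of the TCF family that keep T cells in naive and central states, and both yield when cells become effectors. Satb1 organizes chromatin and is kept low in mature Tregs by Foxp3, while Dapl1, of which little is known, and Igfbp4, a secreted protein that binds insulin-like growth factors, are transcripts used as markers of naive T cells. TCR signals and IL-2 both lower the program in conventional T cells.

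In the mouse genome build GRCm38, Klf2 lies on chromosome 8 at 72319033 to 72321656 on the plus strand. S1pr1 lies at 115710433 to 115715072 (minus strand) and Lef1 at 131110471 to 131224356 (plus strand) on chromosome 3. Tcf7, at 52252371 to 52283014 (minus strand), and Igfbp4, at 99041244 to 99054392 (plus strand), are both on chromosome 11. Satb1 occupies 51736187 to 51833290 of chromosome 17 (minus strand), and Dapl1 59484653 to 59505020 of chromosome 2 (plus strand). All 7 are protein-coding genes. Noncoding or unclassified genes overlap Tcf7 (2 genes), Lef1 (2) and Satb1 (6), and none of the overlapping genes reached more than 21.5 CPM in any library.

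RefSeq promoter sequence (GRCm38.p6) was at hand for 6 of the 7 members, all but S1pr1, with 14 starts. The 250 bases before each start were searched on both strands for CACCC, the core that KLF factors bind, GTAAACA (FOXO factors), CTTTGA (TCF factors) and TTCNNNGAA (STAT factors), and none of these motifs contains another. The promoters of 3 members are printed to show such matches, with the matched letters in capitals on either strand, from 5′ to 3′ along the strand of the gene. Klf2 (chr8:72318812-72319061, plus strand, CACCC as GGGTG) and Lef1 (chr3:131110047-131110296, plus strand, CACCC) are shown for the KLF core, and Dapl1 (chr2:59484403-59484652, plus strand) for the FOXO sequence.
Klf2: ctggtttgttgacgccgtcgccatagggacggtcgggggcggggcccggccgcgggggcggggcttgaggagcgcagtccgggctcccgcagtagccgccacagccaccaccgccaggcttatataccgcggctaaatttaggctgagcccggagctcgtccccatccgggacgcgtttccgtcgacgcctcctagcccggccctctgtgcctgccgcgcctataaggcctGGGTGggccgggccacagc
Lef1: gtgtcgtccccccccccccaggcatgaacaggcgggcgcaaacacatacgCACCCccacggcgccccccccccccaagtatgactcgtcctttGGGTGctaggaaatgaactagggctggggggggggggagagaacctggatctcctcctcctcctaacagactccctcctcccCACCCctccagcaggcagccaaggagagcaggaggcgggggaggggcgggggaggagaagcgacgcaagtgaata
Dapl1: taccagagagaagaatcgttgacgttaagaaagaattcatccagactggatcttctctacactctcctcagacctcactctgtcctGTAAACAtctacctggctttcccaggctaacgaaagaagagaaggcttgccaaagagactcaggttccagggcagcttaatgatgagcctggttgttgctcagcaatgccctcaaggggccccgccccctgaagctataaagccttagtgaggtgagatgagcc
CACCC was found in 5 of the 6 genes and before 12 of the 14 starts, a sequence that 52.0% of all 32851 mouse starts hold. The 14 windows are not separate, since 2 of Lef1 overlap each other, as do 2 of Satb1, and these 2 genes supply 9 of the starts. The FOXO sequence was found before the Dapl1 start alone, against 3.17% of all starts. CTTTGA preceded 1 start of Lef1 and no start of the other members (13.8% of all starts), and TTCNNNGAA preceded none of the 14 (7.02% of all starts). A match describes these letters only and shows no binding.

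Total expected counts per library ranged from 18.28 to 51.24 M in Tregs and from 31.31 to 51.95 M in Tcons, and CPM, counts scaled to library size, are given after TMM scaling over all 48 libraries. Foxp3 marked the Treg libraries: its level in a Tcon library was 6.81% to 18.3% of that in the Treg library of the same mouse (median 8.63%). The highest of these belonged to Tcon isotype WT IL-2 replicate 2, whose summed Treg markers (Foxp3, Il2ra, Ikzf2 and Ctla4) reached 1331 CPM against 281 to 646 CPM in the other 15 Tcon libraries. A pair of Treg libraries stood apart in markers of other cells. In isotype PBS replicate 1 the 5 B cell markers summed to 545 CPM, and in MHC II block WT IL-2 replicate 1 they summed to 518 CPM with 452 CPM of 4 myeloid markers, where the medians of the other 31 Treg libraries were 55.7 and 17.0 CPM. Calls that leaving out both of these libraries changed are given with the result.

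Sums over 9 lists of cell markers also moved with groups, and a list is named here where the libraries of 2 groups did not overlap. Under all 3 molecules with isotype, B cell markers (42.1 to 78.6 CPM under WT IL-2, 26.1 to 34.1 under H16R and 24.1 to 31.2 under 3x, against 99.9 to 545 after PBS), NK markers (13.9 to 20.6, 9.51 to 13.5 and 11.0 to 19.3, against 27.4 to 43.7 CPM) and dendritic cell markers (3.29 to 4.41, 1.54 to 2.15 and 2.12 to 3.62, against 6.72 to 17.4 CPM) lay below PBS. The 4 T cell markers (Cd3e, Cd3d, Cd4 and Trac) and the 4 Treg markers lay above it, the latter at 3670.4 to 4197, 3969 to 4069 and 3880.2 to 4069.8 against 2449 to 3101 CPM. In the MHC II block arm and the same order of molecules, myeloid markers (18.8 to 452, 25.3 to 49.7 and 40.2 to 57.5, against 7.65 to 15.2 CPM) and the 2 CD8 T cell markers (10.5 to 45.1, 10.3 to 15.6 and 13.5 to 36.7, against 7.30 to 8.98 CPM) lay above PBS under all 3, and T cell and Treg markers under both muteins. The 4 endothelial and stromal markers, of which Pecam1, also a T cell transcript, gave 155 to 179 CPM in isotype PBS Tregs, summed to 158 to 183 CPM there, 195 to 210.2 CPM under isotype H16R and 203 to 224 CPM under isotype 3x. They summed to 172 to 185 CPM after MHC II block PBS and less after MHC II block WT IL-2 (149 to 167 CPM) and 3x (158 to 166 CPM). Under 3x these are the directions that Lef1 and Dapl1 took. The part of these markers in the results was not tested.

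Levels of different genes were compared as FPKM, which divide fragments by transcript length. In isotype PBS Tregs, Klf2 stood at 539 ± 50.1 FPKM and Tcf7 at 229.9 ± 16.7 FPKM (SD, n = 4), the highest of the set. S1pr1 (74.9 ± 6.19 FPKM), Satb1 (65.5 ± 9.58 FPKM) and Lef1 (44.5 ± 3.88 FPKM) followed at intermediate levels. Igfbp4 (17.6 ± 2.38 FPKM) and Dapl1 (4.02 ± 1.03 FPKM) were low in Tregs, and Dapl1 rested on 30 to 165 expected counts per Treg library, so that its values carry the largest counting error. Libraries are the unit of replication throughout, and in bulk RNA fewer cells that express a gene and less RNA per cell cannot be told apart.

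**Figure D1:**
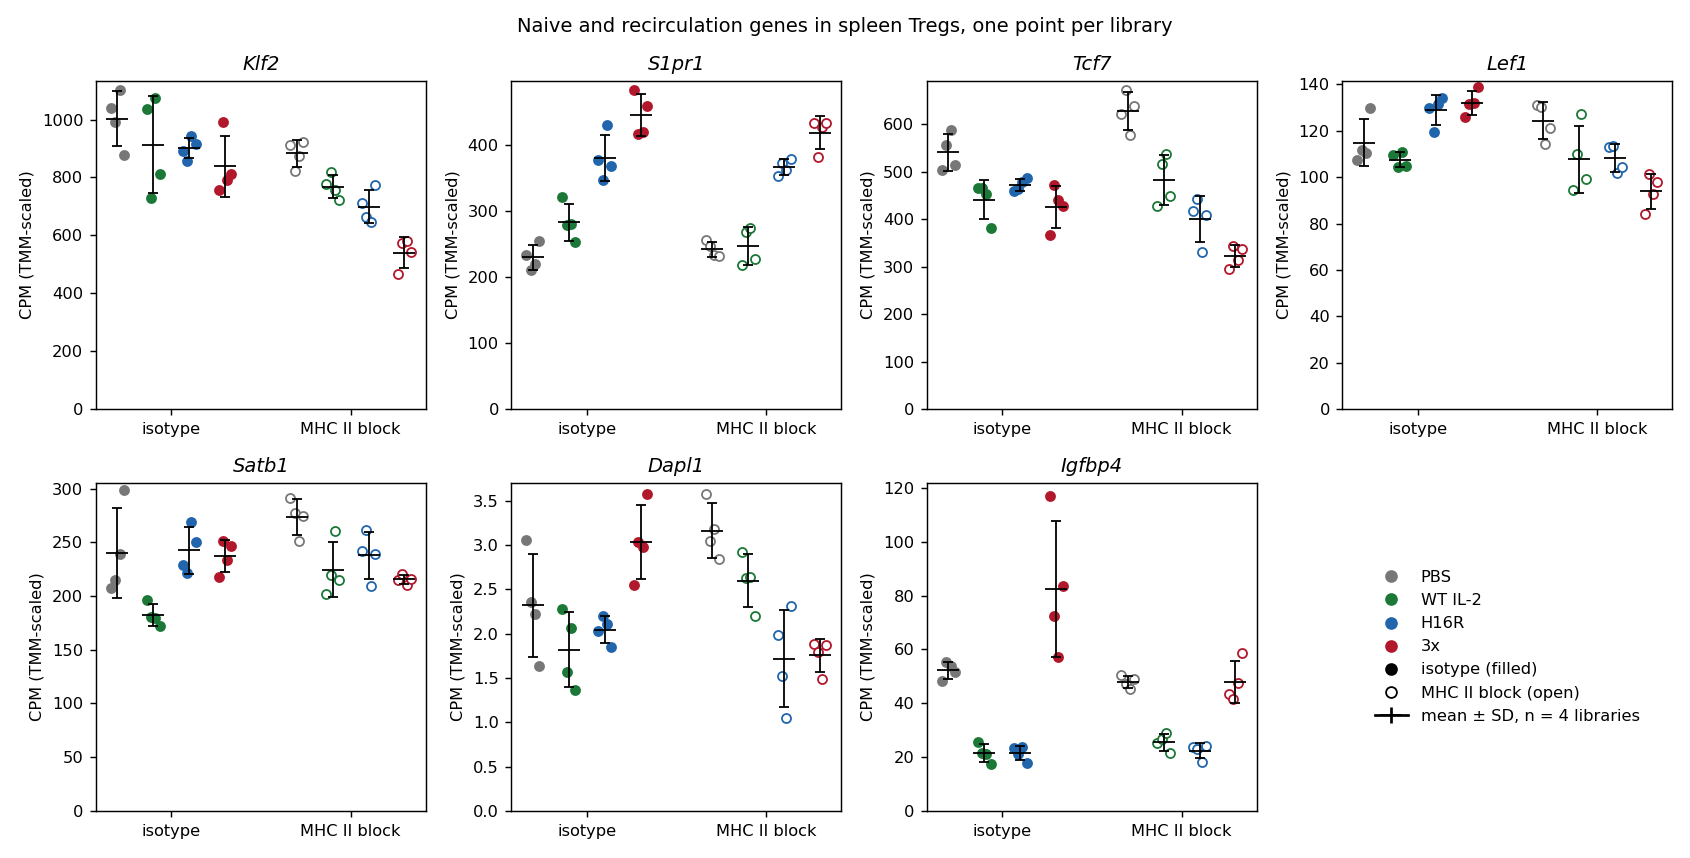
Level of each of the 7 genes in CPM (y axis, TMM-scaled, starting at 0) in the 32 Treg libraries, by antibody (x axis) and treatment (color), with points for libraries and bars for mean ± SD of 4 libraries. Klf2, Tcf7, Lef1, Satb1 and Dapl1 sat lower in the MHC II block 3x libraries than in the MHC II block PBS libraries without overlap, S1pr1 sat higher, and Igfbp4 fell under WT IL-2 and H16R but not under 3x. How many of all genes separate in this way was not counted.

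The first question was how each IL-2 molecule changed the set in Tregs with antigen presentation intact. Each comparison used the quasi-likelihood test of edgeR, with p-values adjusted by Benjamini-Hochberg across every gene tested and 0.1 as the threshold. The share of all genes that passed is given beside each count of members, and it is itself uncertain: leaving out 1 library, or 1 mouse for the gap, moved the number of genes called by over 1.5 times in 6 comparisons of Tregs, the gap between Tregs and Tcons under WT IL-2 and all 9 comparisons within Tcons. Where a call is said to be lost or gained without named libraries, they were left out 1 at a time, and the value in parentheses is the log2 fold change of that fit. In fits of Tregs with Tcons the whole mouse was left out, with both its libraries. With the isotype antibody, WT IL-2 passed the test for 4 of the 7 genes against 52.2% of all 12392 genes tested: S1pr1 rose, and Tcf7, Satb1 and Igfbp4 fell. H16R passed for 4 of 7 (64.2% of all genes), with S1pr1 and Lef1 up and Tcf7 and Igfbp4 down. 3x passed for 6 of 7 (63.6% of all genes), with S1pr1, Lef1, Dapl1 and Igfbp4 up and Klf2 and Tcf7 down. Members moved in both directions under every molecule.

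The same molecules were then compared with PBS in mice whose MHC II was blocked. WT IL-2 passed for 4 of 7 (35.6% of all genes), namely Tcf7, Lef1, Satb1 and Igfbp4, all lower. H16R passed for all 7 (66.5% of all genes) and 3x for 6 (73.0% of all genes). Under both muteins S1pr1 was the 1 member that rose, while Klf2, Tcf7, Lef1, Satb1 and Dapl1 fell, and Igfbp4 fell under H16R alone. The median log2 fold change of the 7 genes was -0.34 under H16R and -0.41 under 3x, beside medians of -0.02 and -0.04 over all genes tested.

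**Figure D2:**
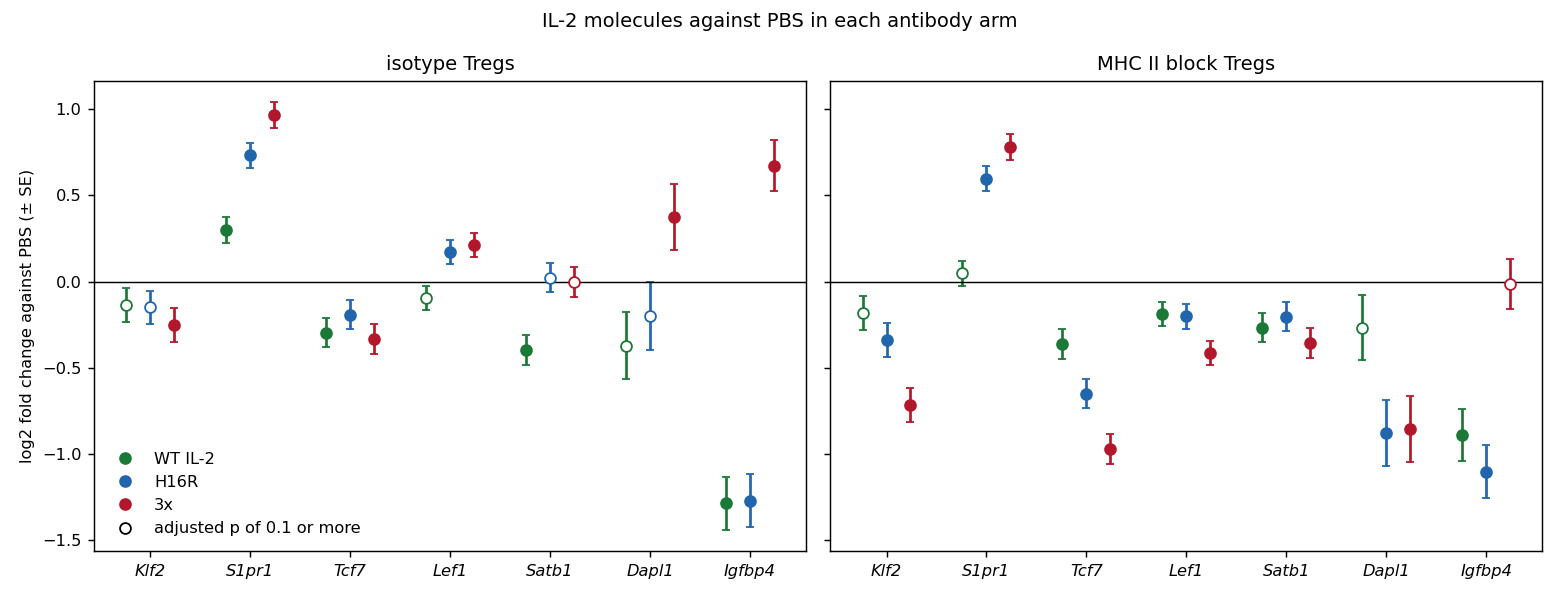
Log2 fold change against PBS ± SE (y axis) of the 7 genes (x axis) for WT IL-2, H16R and 3x, with isotype antibody at left and MHC II block at right, filled where the adjusted p was under 0.1. S1pr1 rose under both muteins in both arms, while Tcf7 reached -0.97 under 3x with MHC II block against -0.33 with isotype.

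Whether the response itself depended on MHC II was tested as an interaction, the log2 fold change against PBS in the MHC II block arm minus that in the isotype arm. For 3x, 6 of the 7 genes passed, all of them lower with MHC II block, while 39.0% of all genes passed in either direction. The median of the 7 differences was -0.63, beside 0.00 over all genes. Dapl1 had the largest difference (-1.23 ± 0.27, SE, adjusted p = 0.00132), followed by Igfbp4 (-0.68 ± 0.21, adjusted p = 0.0139), Tcf7 (-0.64 ± 0.12, adjusted p = 3.22e-04) and Lef1 (-0.63 ± 0.10, adjusted p = 4.14e-05). Klf2 (-0.47 ± 0.14, adjusted p = 0.0122) and Satb1 (-0.35 ± 0.12, adjusted p = 0.0287) had smaller ones. Such a difference also counts any difference between the arms after PBS. Mean Satb1 was 240 CPM with isotype and 274 CPM with MHC II block after PBS, and 237 and 215 CPM after 3x. S1pr1 stood apart at -0.18 ± 0.10 (adjusted p = 0.186), with an approximate 95% interval of -0.39 to 0.02, and it passed only without isotype PBS replicate 4 (-0.23). These 6 calls were kept in each of the 32 fits that left out 1 library.

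For H16R the interaction passed for 2 of 7, Tcf7 (-0.46 ± 0.12, SE, adjusted p = 0.0153) and Lef1 (-0.37 ± 0.10, adjusted p = 0.0157), both lower with MHC II block, against 19.1% of all genes. Dapl1 missed the threshold at -0.68 ± 0.27 (adjusted p = 0.102) and passed without isotype PBS replicate 1 (-0.86), isotype WT IL-2 replicates 1 (-0.68) and 3b (-0.68), MHC II block WT IL-2 replicate 1 (-0.67) and MHC II block H16R replicates 1 (-0.75) and 4 (-0.85), and without both libraries that stood apart (-0.85, adjusted p = 0.0436), and also when replicate numbers entered the fit as a block (-0.70, adjusted p = 0.0862). Satb1 did not pass in the full fit and passed without isotype PBS replicate 4 (-0.35). It ranged from -0.35 to -0.17 over the fits that left out 1 library. For WT IL-2 none of the 7 passed in edgeR, with 1 at an unadjusted p under 0.05 and 1 called by DESeq2, against 19.7% of all genes. That gene was S1pr1, at -0.25 ± 0.10 (adjusted p = 0.112), which passed without isotype PBS replicate 4 (-0.31), isotype WT IL-2 replicates 2 (-0.29) and 3b (-0.30), isotype H16R replicate 3 (-0.25), MHC II block WT IL-2 replicates 2 (-0.29) and 3 (-0.30) and MHC II block 3x replicates 1 (-0.28), 2 (-0.27), 3 (-0.28) and 4 (-0.28). The 3 interactions share their PBS libraries and are not independent of one another.

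**Figure D3:**
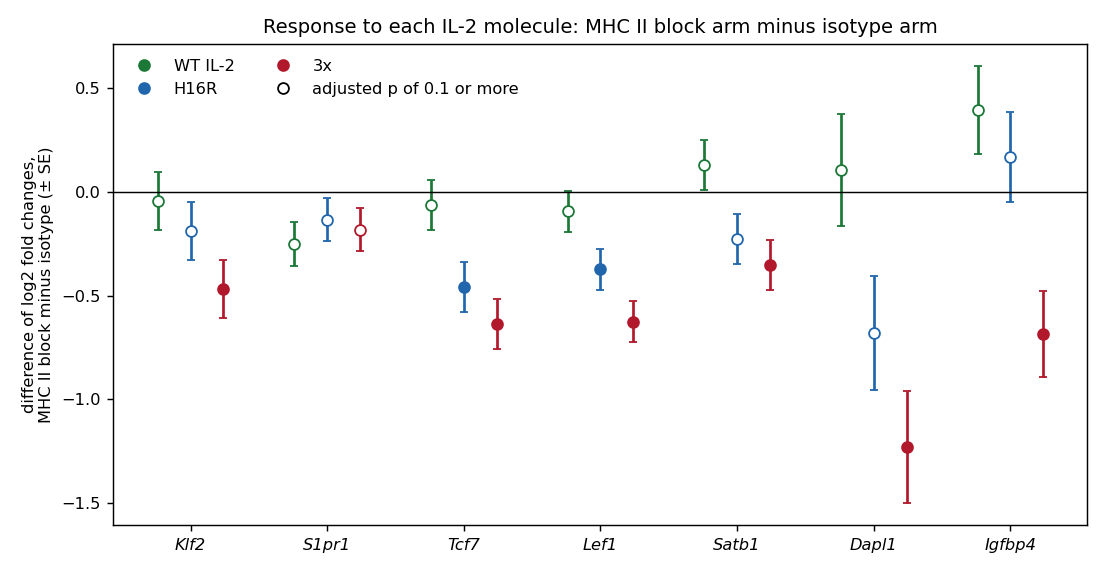
Difference between the log2 fold changes against PBS in the MHC II block arm and in the isotype arm ± SE (y axis) for the 7 genes (x axis) and 3 IL-2 molecules, filled where the adjusted p was under 0.1. Under 3x, 6 of the 7 differences lay below 0 and passed, from -0.35 for Satb1 to -1.23 for Dapl1, and S1pr1 did not pass.

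Klf2 had its highest mean in isotype PBS Tregs and its lowest under 3x with MHC II block. It measured 1039.7, 992, 1101 and 878 CPM in isotype PBS libraries and 758, 992, 791 and 812 CPM in isotype 3x libraries. With MHC II block it measured 913, 822, 875 and 923 CPM after PBS and 467, 573, 582 and 542 CPM after 3x. The isotype groups overlapped in 1 library of 3x, whereas every MHC II block 3x library lay below every other Treg library. The fall under 3x was -0.72 ± 0.10 on the log2 scale (SE, adjusted p = 3.13e-07), a 1.64-fold decrease, with MHC II block, and -0.25 ± 0.10 (adjusted p = 0.0313) with isotype, and the isotype call was lost without isotype PBS replicate 3 (-0.20) and isotype 3x replicate 1 (-0.20). H16R lowered Klf2 with MHC II block (-0.34 ± 0.10, adjusted p = 0.00403; 646 to 775 CPM). With isotype the change under H16R was -0.15 ± 0.10 (adjusted p = 0.193), which passed without isotype PBS replicate 4 (-0.21), with total counts (-0.22, adjusted p = 0.0566) and with limma on log2(FPKM + 1) (-0.21, adjusted p = 0.0693). Under WT IL-2 it was -0.14 ± 0.10 (adjusted p = 0.261) with isotype, where the 4 libraries spread from 729.8 to 1074 CPM and the test passed without isotype WT IL-2 replicate 3a (-0.22). Over the fits that left out 1 library that change ranged from -0.22 to -0.03, nearest 0 without isotype WT IL-2 replicate 2. In the MHC II block arm it was -0.18 ± 0.10 (adjusted p = 0.168) with MHC II block, passing without isotype WT IL-2 replicate 2 (-0.20).

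S1pr1, a target of Klf2, rose under both muteins. It measured 233, 211, 219.9 and 254 CPM in isotype PBS libraries, 377, 346, 429 and 367 CPM under H16R and 483, 416, 419.8 and 458 CPM under 3x. In the MHC II block arm it measured 256, 247, 234 and 231 CPM after PBS, 352, 372, 361 and 379 CPM after H16R and 432, 381, 426 and 433 CPM after 3x. All 16 mutein libraries lay above all 16 libraries of PBS and WT IL-2 mice. The rise under 3x was 0.96 ± 0.07 (SE, adjusted p = 2.46e-11) with isotype, a 1.95-fold increase, and 0.78 ± 0.07 (adjusted p = 3.97e-10) with MHC II block. H16R raised it by 0.73 ± 0.07 (adjusted p = 3.13e-09) and 0.60 ± 0.07 (adjusted p = 9.63e-08) in the respective arms. Under WT IL-2 it rose with isotype (0.30 ± 0.07, adjusted p = 0.00171; 253 to 320.3 CPM) and had a change of 0.05 ± 0.07 (adjusted p = 0.666; 218 to 274 CPM) with MHC II block.

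The level of S1pr1 relative to that of Klf2 in the same library was set beside both. The ratio of the 2 CPM values was 0.232 ± 0.0402 (SD, n = 4) in isotype PBS Tregs, and 0.538 ± 0.0905 in isotype 3x Tregs. With MHC II block it was 0.274 ± 0.0209 after PBS, 0.526 ± 0.0398 after H16R and 0.781 ± 0.111 after 3x. The lowest MHC II block 3x library (0.666) stood above the highest library of any other Treg group (0.637, isotype 3x). The ratio is a description and was not tested.

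**Figure D4:**
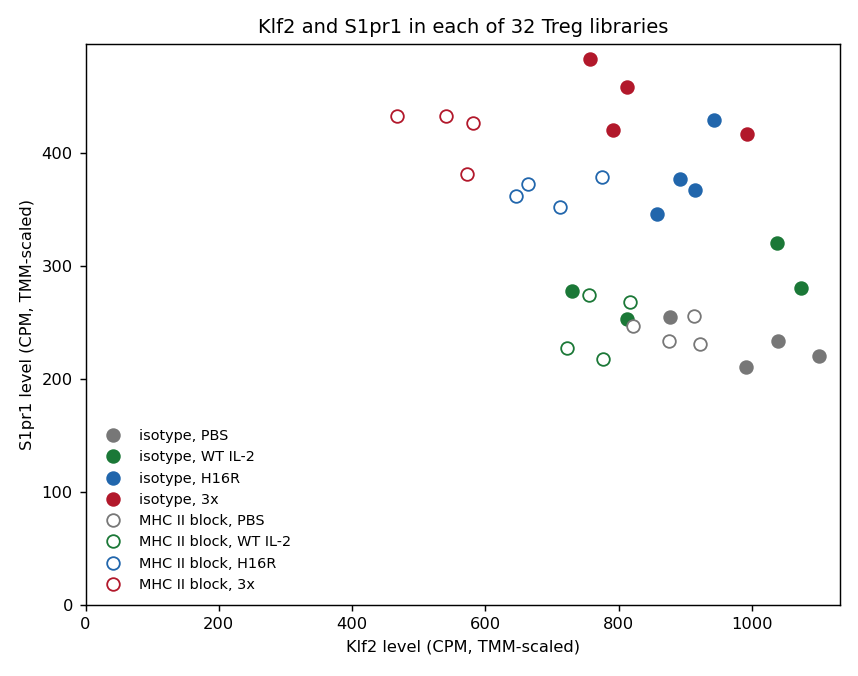
S1pr1 against Klf2 in CPM (both axes linear, TMM-scaled) in each of the 32 Treg libraries, colored by treatment and open for MHC II block. The MHC II block 3x libraries combine the lowest Klf2 (467 to 582 CPM) with S1pr1 of 381 to 433 CPM, and the PBS libraries lie at the lower right.

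Tcf7 fell under every molecule in both arms, least under H16R with isotype and most under 3x with MHC II block. It measured 504, 556, 588 and 514 CPM in isotype PBS libraries and 366, 471, 439.7 and 428 CPM in isotype 3x libraries. After MHC II block it measured 621, 672, 576 and 638 CPM with PBS, 418, 443, 332 and 409 CPM with H16R and 296, 344, 313 and 337 CPM with 3x. The PBS and 3x ranges did not overlap in either arm. The fold changes under 3x were -0.33 ± 0.09 (SE, adjusted p = 0.00152) with isotype and -0.97 ± 0.09 (adjusted p = 1.01e-10), a 1.96-fold decrease, with MHC II block. Under H16R they were -0.19 ± 0.09 (adjusted p = 0.0541) and -0.65 ± 0.09 (adjusted p = 2.56e-07), and the isotype call was lost without isotype PBS replicates 2 (-0.18) and 3 (-0.15) and isotype H16R replicate 1 (-0.18). WT IL-2 gave -0.30 ± 0.09 (adjusted p = 0.00588) and -0.36 ± 0.09 (adjusted p = 0.00218), which the interaction did not separate (-0.07 ± 0.12, adjusted p = 0.777, interval -0.30 to 0.17).

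Lef1, the relative of Tcf7, fell under every molecule with MHC II block, and its rises with isotype depended on the unit. It measured 107, 112, 110.4 and 129.9 CPM in isotype PBS libraries and 126, 131, 132 and 139 CPM in isotype 3x libraries, and 131, 130.4, 114 and 121 CPM and 84.1, 101, 92.6 and 97.8 CPM in the same groups with MHC II block. Isotype PBS and 3x overlapped in 1 PBS library, while all MHC II block 3x libraries lay below all MHC II block PBS libraries. Under 3x the log2 fold change was 0.21 ± 0.07 (SE, adjusted p = 0.0107) with isotype and -0.41 ± 0.07 (adjusted p = 8.18e-06) with MHC II block. Under H16R it was 0.17 ± 0.07 (adjusted p = 0.0375), lost without isotype PBS replicate 1 (0.15), and -0.20 ± 0.07 (adjusted p = 0.0143). Both isotype rises were lost when FPKM replaced counts, with limma on log2(FPKM + 1) giving 0.10, adjusted p = 0.269 for 3x and 0.00, adjusted p = 0.986 for H16R. WT IL-2 gave -0.09 ± 0.07 (adjusted p = 0.285) with isotype, which passed as lower with limma on log2(FPKM + 1) (-0.21, adjusted p = 0.0199). That change ranged from -0.12 to -0.03 over the fits that left out 1 library. With MHC II block WT IL-2 gave -0.19 ± 0.07 (adjusted p = 0.0445), a call lost without MHC II block PBS replicates 1 (-0.16) and 2 (-0.16) and MHC II block WT IL-2 replicates 1 (-0.14) and 4 (-0.15) and without both libraries that stood apart (-0.14, adjusted p = 0.153).

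Satb1 was lowest under WT IL-2 with isotype. It measured 197, 180.2, 180.1 and 172 CPM there against 208, 215, 239 and 299 CPM after PBS, with no overlap (-0.40 ± 0.09, SE, adjusted p = 4.80e-04). H16R (0.02 ± 0.09, adjusted p = 0.832, interval -0.15 to 0.19) and 3x (-0.00230 ± 0.0858, adjusted p = 0.983, interval -0.17 to 0.17) passed no test with isotype. With MHC II block the PBS libraries measured 292, 277, 251 and 274 CPM and the 3x libraries 215, 220.2, 210.2 and 216 CPM, again without overlap, a change of -0.35 ± 0.09 (adjusted p = 6.50e-04). WT IL-2 (-0.27 ± 0.09, adjusted p = 0.0203) and H16R (-0.20 ± 0.09, adjusted p = 0.0416) also lowered it in that arm, and the H16R call was lost without MHC II block PBS replicate 1 (-0.16) and MHC II block H16R replicate 3 (-0.15).

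Igfbp4 fell under WT IL-2 and H16R in both arms and rose under 3x with isotype. It measured 48.2, 55.2, 53.8 and 51.7 CPM in isotype PBS libraries, 25.7, 21.6, 21.3 and 17.3 CPM under WT IL-2, 23.3, 21.3, 23.8 and 17.9 CPM under H16R and 117, 72.3, 57.2 and 83.6 CPM under 3x. Every library of WT IL-2 and H16R lay below every PBS library, whereas every 3x library lay above every PBS library. The log2 fold changes were -1.28 ± 0.15 (SE, adjusted p = 1.25e-07) for WT IL-2, -1.27 ± 0.15 (adjusted p = 6.46e-08) for H16R and 0.67 ± 0.15 (adjusted p = 3.05e-04) for 3x. With MHC II block it measured 50.4, 47.1, 45.4 and 49.0 CPM after PBS, 23.8, 23.1, 18.3 and 24.2 CPM after H16R and 43.6, 41.5, 47.5 and 58.8 CPM after 3x. WT IL-2 (-0.89 ± 0.15, adjusted p = 7.42e-05; 21.4 to 29.0 CPM) and H16R (-1.10 ± 0.15, adjusted p = 5.96e-07) lowered it again, and for 3x the change was -0.01 ± 0.15 (adjusted p = 0.941, interval -0.30 to 0.27).

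Dapl1 fell under both muteins with MHC II block. It measured 3.05, 2.36, 2.22 and 1.64 CPM after PBS and 2.55, 3.03, 2.97 and 3.58 CPM after 3x with isotype, with overlapping ranges, and 3.57, 3.05, 3.18 and 2.84 CPM and 1.88, 1.79, 1.49 and 1.87 CPM with MHC II block, without overlap. The fall under 3x with MHC II block was -0.85 ± 0.19 (SE, adjusted p = 2.92e-04) and that under H16R -0.88 ± 0.19 (adjusted p = 3.20e-04; 1.05 to 2.31 CPM). The isotype rise under 3x (0.38 ± 0.19, adjusted p = 0.0939) was close to the threshold and was lost without isotype PBS replicates 2 (0.38), 3 (0.35) and 4 (0.25), isotype H16R replicate 1 (0.38), isotype 3x replicates 2 (0.38), 3 (0.39) and 4 (0.29) and MHC II block WT IL-2 replicates 2 (0.38) and 3 (0.38). It was also lost with scaling to total counts (0.32, adjusted p = 0.151). Under WT IL-2 the changes were -0.37 ± 0.20 (adjusted p = 0.123) with isotype, which passed without isotype PBS replicate 4 (-0.49), isotype WT IL-2 replicate 1 (-0.50) and MHC II block H16R replicate 3 (-0.37) but ranged from -0.50 to -0.19 over the fits that left out 1 library, nearest 0 without isotype PBS replicate 1, and which passed with total counts (-0.40, adjusted p = 0.0913) and with limma on log2(FPKM + 1) (-0.29, adjusted p = 0.0968) and log2(FPKM + 0.1) (-0.37, adjusted p = 0.0987), and -0.27 ± 0.19 (adjusted p = 0.300) with MHC II block.

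The 2 muteins and WT IL-2 were given at 1 dose and read at 1 time, so they could be set against each other directly, in 6 pairs of groups. With isotype, 3x against WT IL-2 passed for 5 of 7, all higher (34.7% of all genes), led by Igfbp4 (1.95 ± 0.15, SE, adjusted p = 8.92e-10), Dapl1 (0.75 ± 0.19, adjusted p = 0.00393) and S1pr1 (0.66 ± 0.07, adjusted p = 3.06e-07). H16R against WT IL-2 passed for 3 (18.6% of all genes): S1pr1 (0.43 ± 0.07, adjusted p = 4.56e-04), Satb1 (0.42 ± 0.09, adjusted p = 0.00213) and Lef1 (0.27 ± 0.07, adjusted p = 0.0127), all higher. For Igfbp4 no difference between those 2 molecules passed (0.01 ± 0.15, adjusted p = 0.971), with an approximate 95% interval of -0.29 to 0.31. Between the muteins, 3x against H16R passed for 3 (11.5% of all genes), of which Igfbp4 (1.94 ± 0.15, adjusted p = 3.44e-09) was the largest. S1pr1 (0.23 ± 0.07, adjusted p = 0.0514) was lost without isotype H16R replicates 1 (0.23), 2 (0.19) and 4 (0.22) and isotype 3x replicates 1 (0.19) and 4 (0.22), and Dapl1 (0.58 ± 0.19, adjusted p = 0.0600) without isotype H16R replicates 1 (0.57) and 4 (0.53) and isotype 3x replicate 4 (0.49).

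With MHC II block, 3x against WT IL-2 passed for 6 of 7 (68.7% of all genes), S1pr1 (0.73 ± 0.07, SE, adjusted p = 4.58e-09) and Igfbp4 (0.88 ± 0.15, adjusted p = 1.50e-05) higher and Klf2, Tcf7, Lef1 and Dapl1 lower. The Dapl1 call (-0.59 ± 0.19) was lost when all libraries were thinned to equal depth (-0.31, adjusted p = 0.215), and the Lef1 call (-0.23 ± 0.07) when the 2 groups were fitted alone (-0.19, adjusted p = 0.109). Among the genes that were lower, Tcf7 (-0.61 ± 0.09, adjusted p = 9.45e-07) and Klf2 (-0.54 ± 0.10, adjusted p = 4.11e-05) had the smallest p-values. H16R against WT IL-2 passed for 3 (57.5% of all genes), S1pr1 higher (0.55 ± 0.07, adjusted p = 1.64e-06) and Tcf7 (-0.29 ± 0.09, adjusted p = 0.00697) and Dapl1 (-0.61 ± 0.19, adjusted p = 0.0107) lower. 3x against H16R passed for 5 (25.2% of all genes). Igfbp4 (1.09 ± 0.15, adjusted p = 2.99e-05) was higher under 3x, and Klf2 (-0.38 ± 0.10, adjusted p = 0.00762) and Tcf7 (-0.32 ± 0.09, adjusted p = 0.00903) were lower. S1pr1 (0.18 ± 0.07) and Lef1 (-0.21 ± 0.07) were less certain: the first was lost without MHC II block H16R replicates 1 (0.17), 2 (0.20), 3 (0.18) and 4 (0.19) and MHC II block 3x replicates 1 (0.17), 3 (0.17) and 4 (0.17), the second without MHC II block H16R replicates 1 (-0.19) and 2 (-0.18) and MHC II block 3x replicate 1 (-0.16).

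MHC II block against isotype was also read within each treatment. In PBS mice none of the 7 genes passed in edgeR, with 3 at an unadjusted p under 0.05 and 1 called by DESeq2, against 14.1% of all genes. The nearest was Tcf7 (0.21 ± 0.09, SE, adjusted p = 0.122), which passed without isotype PBS replicate 3 (0.25), isotype 3x replicate 1 (0.21), MHC II block PBS replicate 3 (0.25), MHC II block H16R replicate 3 (0.21) and MHC II block 3x replicate 2 (0.22). Satb1 (0.19 ± 0.09) passed without isotype PBS replicate 4 (0.31), and Dapl1 (0.42 ± 0.19) without isotype PBS replicate 1 (0.61), 1 of the libraries rich in B cell markers, and without both libraries that stood apart (0.60, adjusted p = 0.0514). No marker list separated the arms in PBS Tregs. Under 3x, 5 of 7 passed, all lower with the block (54.1% of all genes): Klf2 (-0.65 ± 0.10, adjusted p = 6.05e-06), Lef1 (-0.51 ± 0.07, adjusted p = 1.35e-06), Tcf7 (-0.43 ± 0.09, adjusted p = 2.16e-04), Dapl1 (-0.81 ± 0.19, adjusted p = 0.00108) and Igfbp4 (-0.81 ± 0.14, adjusted p = 5.99e-05). Satb1 (-0.16 ± 0.09, adjusted p = 0.121) joined them without isotype PBS replicate 4 (-0.16), isotype 3x replicate 1 (-0.20) and MHC II block WT IL-2 replicate 3 (-0.16), and without both libraries that stood apart (-0.16, adjusted p = 0.0970). Marker lists also separated the arms under 3x. With the block against isotype, myeloid markers summed to 40.2 to 57.5 against 14.0 to 20.4 CPM, B cell markers 48.2 to 108 against 24.1 to 31.2 CPM, NK markers 21.4 to 26.0 against 11.0 to 19.3 CPM and dendritic cell markers 6.28 to 9.58 against 2.12 to 3.62 CPM. CD8 T cell markers (13.5 to 36.7 against 9.68 to 11.4 CPM) and erythroid markers (0.713 to 2.96 against 0.190 to 0.585 CPM) were higher as well, and endothelial and stromal markers lower (158 to 166 against 203 to 224 CPM). Their part in these calls was not tested.

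Under H16R, 3 of 7 passed, all lower (30.7% of all genes), Klf2 (-0.38 ± 0.10, SE, adjusted p = 0.00828), Lef1 (-0.26 ± 0.07, adjusted p = 0.00994) and Tcf7 (-0.25 ± 0.09, adjusted p = 0.0392), the last lost without MHC II block H16R replicate 3 (-0.16). Myeloid (25.3 to 49.7 against 9.74 to 13.4 CPM), B cell (42.3 to 74.4 against 26.1 to 34.1 CPM), NK (19.0 to 30.6 against 9.51 to 13.5 CPM) and dendritic cell markers (5.36 to 9.68 against 1.54 to 2.15 CPM) were higher with the block under H16R, and Treg (3479 to 3847 against 3969 to 4069 CPM) and endothelial and stromal markers (164 to 182 against 195 to 210.2 CPM) lower. Under WT IL-2, 4 passed (33.6% of all genes), with Satb1 (0.32 ± 0.09, adjusted p = 0.00649) and Dapl1 (0.53 ± 0.19, adjusted p = 0.0391) higher and Klf2 (-0.23 ± 0.10, adjusted p = 0.0824) and S1pr1 (-0.18 ± 0.07, adjusted p = 0.0737) lower. Only Satb1 kept its call in all 32 fits that left out 1 library. Klf2 lost it without isotype WT IL-2 replicates 1 (-0.16) and 3a (-0.15) and MHC II block WT IL-2 replicates 1 (-0.25), 3 (-0.22) and 4 (-0.21), S1pr1 without isotype WT IL-2 replicates 1 (-0.11) and 3a (-0.19) and MHC II block WT IL-2 replicates 1 (-0.13) and 4 (-0.14), and Dapl1 without isotype WT IL-2 replicates 2 (0.44) and 3b (0.41) and MHC II block WT IL-2 replicate 1 (0.46). Without both libraries that stood apart, 2 of the 4 remained called in a fit of the other 30, Klf2 and S1pr1 having been lost (-0.24, adjusted p = 0.104, and -0.13, adjusted p = 0.236). In the same groups the Treg markers summed to 3670.4 to 4197 CPM with isotype and 2245 to 3203 CPM with the block, and Foxp3 was at 983 to 1035 CPM and 687 to 874 CPM. T cell markers were also lower with the block (1213 to 1590.1 against 1641 to 1829 CPM), and myeloid (18.8 to 452 against 8.94 to 17.0 CPM), NK (34.9 to 49.3 against 13.9 to 20.6 CPM) and dendritic cell markers (7.47 to 26.2 against 3.29 to 4.41 CPM) higher. The part of these markers in the calls under H16R and WT IL-2 was not tested.

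Tregs expressed most of the set below the level of Tcons from the same mouse. With the mouse as a block, 6 of the 7 genes were lower in Tregs, against 75.9% of all 12844 genes that passed in either direction. Dapl1 (-3.81 ± 0.07, SE, adjusted p = 2.11e-17) and Igfbp4 (-3.26 ± 0.14, adjusted p = 3.22e-13) differed most, Tcf7 (-1.23 ± 0.07, adjusted p = 2.09e-11), Satb1 (-0.95 ± 0.05, adjusted p = 2.62e-12) and Lef1 (-0.91 ± 0.05, adjusted p = 4.06e-12) by about 1 log2 unit, and S1pr1 least (-0.23 ± 0.09, adjusted p = 0.0242). Klf2 was at 0.07 ± 0.05 (adjusted p = 0.185, interval -0.02 to 0.16). In the 16 mice, Treg Dapl1 was 4.87% to 9.98% of Tcon Dapl1 and Treg Igfbp4 6.28% to 21.8% of Tcon Igfbp4. Tcf7 (26.6% to 52.0%), Lef1 (39.6% to 64.7%) and Satb1 (40.5% to 65.2%) were below 100% in all 16. Foxp3 in the Tregs was 752 ± 30.6 CPM after isotype PBS, 1143 ± 21.2 CPM after isotype 3x and 1058 ± 69.2 CPM after MHC II block with 3x (SD, n = 4), and the part of Treg purity in the results was not tested.

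**Figure D5:**
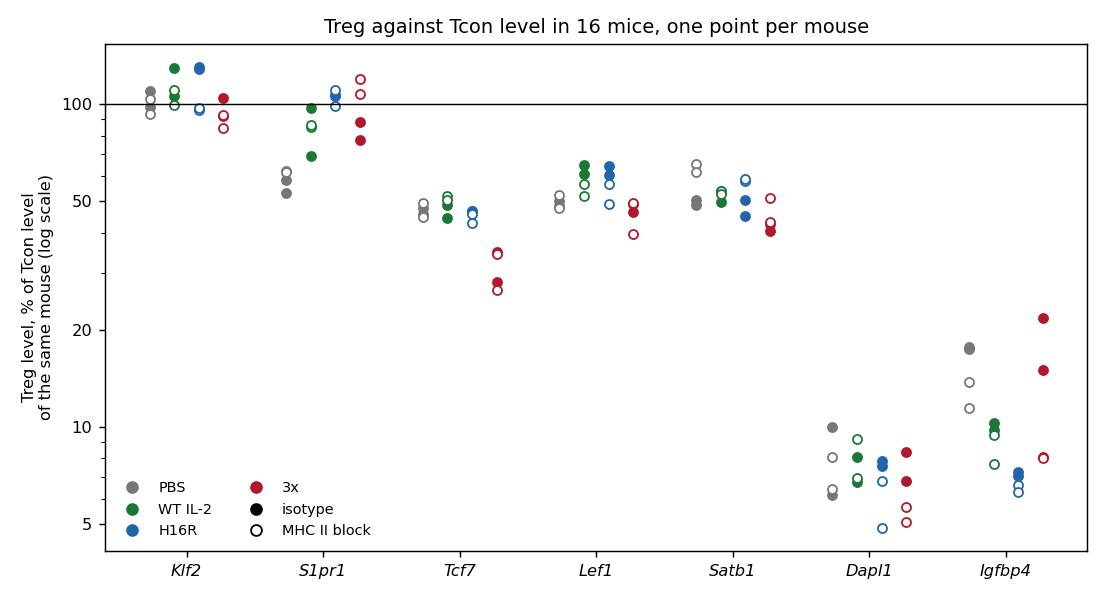
Treg level of each gene as a percentage of the Tcon level of the same mouse (y axis, log scale) in 16 mice, colored by treatment and open for MHC II block, with the line at 100% marking equal levels. Dapl1 and Igfbp4 lie lowest, Klf2 lies around the line, and S1pr1 moves from 53% to 62.2% after PBS to 98.5% to 110.3% after H16R.

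The gap between Tregs and Tcons depended on the treatment for S1pr1. Its Treg level was 53% to 62.2% of the Tcon level in the 4 PBS mice and 98.5% to 110.3% in the 4 H16R mice. Under 3x the arms did not overlap, with 87.8% and 77.3% in the isotype mice and 119.8% and 108% in the MHC II block mice. Under WT IL-2 it was 97.5% and 69.2% with isotype and 85.3% and 86.4% with MHC II block. The tests of the gap pool both antibody arms, and whether the gap differed between arms was not tested. Against PBS the gap passed for 3 of 7 genes under H16R (40.6% of all genes), S1pr1 (0.86 ± 0.12, SE, adjusted p = 3.19e-04), Igfbp4 (-1.11 ± 0.25, adjusted p = 0.00478) and Lef1 (0.22 ± 0.09, adjusted p = 0.0697), the last lost on leaving out the mice of isotype PBS replicates 1 (0.20) and 2 (0.21), isotype H16R replicates 1 (0.16) and 2 (0.20), MHC II block PBS replicate 2 (0.19) and MHC II block H16R replicate 1 (0.23), 1 at a time, and in a fit that dropped the mouse term (0.22, adjusted p = 0.112). That call was also lost with total counts (0.14, adjusted p = 0.248) and with limma on log2(FPKM + 1) (0.05, adjusted p = 0.723). Under 3x it passed for 3 (46.5% of all genes), S1pr1 (0.73 ± 0.12, adjusted p = 4.00e-04), Tcf7 (-0.59 ± 0.09, adjusted p = 1.25e-04) and Satb1 (-0.33 ± 0.11, adjusted p = 0.0230), so that Treg Tcf7 stood at 26.6% to 34.8% of Tcon Tcf7 against 44.7% to 49.3% after PBS. Igfbp4 (-0.28 ± 0.25, adjusted p = 0.394) passed there without isotype 3x replicate 1 (-0.57), and over all fits that left out 1 mouse it ranged from -0.57 to -0.09, nearest 0 without either MHC II block 3x mouse. Its pooled value mixes mice at 21.8% and 15.1% of the Tcon level with isotype and at 8.08% and 8.02% with MHC II block. Under WT IL-2 it passed for 1, S1pr1 (0.53 ± 0.12, adjusted p = 0.0309), against 12.2% of all genes, and this was lost on leaving out the mouse of isotype WT IL-2 replicate 1 (0.46). In the same comparison Igfbp4 (-0.67 ± 0.25) passed without isotype 3x replicate 1 (-0.67) and MHC II block 3x replicates 1 (-0.68) and 2 (-0.68), and Lef1 (0.24 ± 0.09) without MHC II block H16R replicate 2 (0.24) and MHC II block 3x replicate 1 (0.23).

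In Tcons, with 2 libraries per group and both antibody arms in 1 fit, every call under WT IL-2 and H16R was a fall. Markers of other cells moved with the Tcon groups, and a list is named where the 2 libraries of each group did not overlap those of PBS. With isotype, B cell markers (179.8 to 294 CPM under WT IL-2, 132 to 179 under H16R and 308 to 384 under 3x, against 763 to 830.0 after PBS), myeloid markers (34.9 to 52.8, 20.7 to 21.5 and 26.4 to 43.1, against 86.3 to 93.9 CPM) and dendritic cell markers (20.9 to 22.5, 13.5 to 16.3 and 16.2 to 16.6, against 37.4 to 50.2 CPM) lay below PBS. CD8 T cell markers lay below it under H16R (10.9 to 15.2 CPM) and 3x (14.6 to 15.2 CPM, against 17.8 to 25.4 CPM), while NK markers lay above it (113 to 119.8 and 93.1 to 116, against 81.0 to 86.7 CPM). Erythroid markers were higher under WT IL-2 (6.91 to 103 CPM) and H16R (20.2 to 23.3 CPM) and lower under 3x (1.71 to 2.13 CPM, against 2.85 to 4.11 CPM), and endothelial and stromal markers were lower under WT IL-2 and H16R (151 to 175 and 156 to 163, against 186 to 199 CPM). T cell markers were higher under H16R and 3x, and Treg markers under WT IL-2 and H16R.

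In MHC II block Tcons the myeloid (290.2 to 469.6 CPM under WT IL-2, 92.4 to 106 under H16R and 139 to 144 under 3x, against 24.3 to 26.9 after PBS), CD8 T cell (25.3 to 73.1, 16.7 to 31.4 and 16.0 to 23.5, against 6.76 to 7.38 CPM), NK (104 to 154, 107 to 124 and 97.5 to 101, against 55.2 to 62.4 CPM), dendritic cell (51.0 to 63.9, 35.8 to 39.8 and 45.2 to 49.1, against 17.2 to 18.7 CPM) and erythroid markers (13.1 to 63.5, 7.79 to 19.2 and 4.59 to 14.4, against 1.37 to 3.26 CPM) lay above PBS. B cell markers did so under WT IL-2 and H16R (224 to 277 and 127 to 238, against 116 to 125 CPM). T cell markers (994 to 1191, 1291 to 1323 and 1236 to 1282, against 1663 to 1667 CPM), endothelial and stromal markers (152 to 163, 156 to 168 and 160.1 to 165, against 209 to 218 CPM) and Treg markers lay below it. Between the PBS groups, 5 of the 7 lists of other cells were lower with the block and 1, the endothelial and stromal list, was higher. Naive CD8 T cells are known to express the program studied here. The part of these cells in the Tcon results was not tested.

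Pooled over both antibodies, WT IL-2 passed for 4 of 7, all lower (27.2% of all 12526 genes): Tcf7 (-0.39 ± 0.11, SE, adjusted p = 0.0270), Lef1 (-0.42 ± 0.11, adjusted p = 0.0259), Igfbp4 (-0.33 ± 0.09, adjusted p = 0.0286) and S1pr1 (-0.33 ± 0.13, adjusted p = 0.0855), the last lost without Tcon isotype WT IL-2 replicate 1 (-0.30), Tcon MHC II block PBS replicates 1 (-0.28) and 2 (-0.29), Tcon MHC II block WT IL-2 replicates 1 (-0.27) and 2 (-0.35) and Tcon MHC II block H16R replicate 1 (-0.33). Klf2 (-0.30 ± 0.12) passed without Tcon isotype 3x replicates 1 (-0.32) and 2 (-0.30), Tcon MHC II block WT IL-2 replicate 2 (-0.38) and Tcon MHC II block 3x replicate 1 (-0.30), Satb1 (-0.20 ± 0.09) without Tcon isotype PBS replicate 1 (-0.25), Tcon isotype 3x replicate 2 (-0.20), Tcon MHC II block WT IL-2 replicate 2 (-0.26) and Tcon MHC II block 3x replicate 2 (-0.20), and Dapl1 (-0.39 ± 0.17) without Tcon isotype PBS replicate 1 (-0.50) and Tcon isotype 3x replicate 2 (-0.39). Over all fits that left out 1 library, Satb1 ranged from -0.26 to -0.13 and Dapl1 from -0.50 to -0.24. H16R passed for 3, all lower (31.1% of all genes), Klf2 (-0.42 ± 0.12, adjusted p = 0.0292), Tcf7 (-0.36 ± 0.11, adjusted p = 0.0295) and Dapl1 (-0.47 ± 0.17, adjusted p = 0.0612), the last lost without Tcon isotype H16R replicates 1 (-0.47) and 2 (-0.49), Tcon MHC II block PBS replicates 1 (-0.45) and 2 (-0.41) and Tcon MHC II block H16R replicate 1 (-0.44). S1pr1 (-0.23 ± 0.13) passed without Tcon MHC II block H16R replicate 2 (-0.32).

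Pooled over both arms, 3x passed in Tcons for 1 of 7 (9.88% of all genes), Igfbp4, which rose by 0.61 ± 0.09 (adjusted p = 0.00364). Tcon Igfbp4 measured 536 and 480.1 CPM in isotype 3x and 539 and 517 CPM in MHC II block 3x libraries, against 277 and 313 and 366 and 412 CPM in the PBS libraries, with no overlap. Klf2 (-0.35 ± 0.12) passed without Tcon isotype WT IL-2 replicate 2 (-0.35) and Tcon isotype 3x replicate 2 (-0.47), and Satb1 (0.23 ± 0.09) without Tcon isotype WT IL-2 replicate 2 (0.22) and Tcon MHC II block 3x replicate 2 (0.30). MHC II block against isotype passed for 2 (28.9% of all genes), Igfbp4 higher (0.27 ± 0.07, adjusted p = 0.0214) and S1pr1 lower (-0.23 ± 0.09, adjusted p = 0.0874), the latter lost without Tcon isotype WT IL-2 replicate 2 (-0.19), Tcon isotype 3x replicates 1 (-0.20) and 2 (-0.20), Tcon MHC II block WT IL-2 replicates 1 (-0.20) and 2 (-0.24), Tcon MHC II block H16R replicate 1 (-0.23) and Tcon MHC II block 3x replicates 1 (-0.19) and 2 (-0.19). Dapl1 (0.20 ± 0.12) passed without Tcon isotype 3x replicate 2 (0.29) and ranged from 0.12 to 0.29 over such fits. The lower S1pr1 did not hold in every treatment. With isotype Tcon S1pr1 measured 549.7 and 538 CPM after 3x, 328 and 402 CPM after WT IL-2, 400.2 and 398 CPM after PBS and 353 and 327 CPM after H16R. In the MHC II block libraries it measured 361 and 353 CPM, 255 and 309.9 CPM, 411 and 401 CPM and 319 and 378 CPM in the same order, lower without overlap after 3x and WT IL-2 and higher on average after PBS and H16R.

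Under 3x the group means of some members moved in opposite directions in the 2 arms of the Tcons, which a pooled fit cannot show. Each arm was therefore fitted on its own group means, a comparison added after these values were seen. Tcon Tcf7 measured 1102 and 1168 CPM after PBS and 1299.5 and 1355 CPM after 3x with isotype, and 1391 and 1362 CPM after PBS and 1113 and 999 CPM after 3x with MHC II block. Tcon Lef1 went from 222 and 222 to 258 and 284 CPM with isotype and from 249.9 and 273 to 212 and 205 CPM with MHC II block. The genes named next were picked after their values were seen, and how many of all genes separate in the same way was not counted. For S1pr1, Tcf7 and Lef1 both 3x libraries lay above both PBS libraries with isotype and below both with MHC II block. The 4 T cell markers did the same in these libraries, with 1413 to 1498 CPM after 3x against 1153 to 1234 CPM after PBS with isotype and 1236 to 1282 against 1663 to 1667 CPM with MHC II block, and their part in the result was not tested. Tcon Klf2 went from 947 and 1009 to 827 and 951 CPM with isotype, where the libraries overlapped, and from 880.2 and 883 to 552 and 617 CPM with MHC II block.

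With isotype, 3x passed in Tcons for 3 of 7, all higher (14.5% of all genes), Igfbp4 (0.78 ± 0.12, SE, adjusted p = 0.00261), S1pr1 (0.45 ± 0.11, adjusted p = 0.0272) and Satb1 (0.40 ± 0.10, adjusted p = 0.0248). Tcf7 did not pass (0.22 ± 0.10, adjusted p = 0.197). S1pr1 was lost without Tcon isotype PBS replicates 1 (0.43) and 2 (0.42) and Tcon isotype 3x replicates 1 (0.41) and 2 (0.46), and Satb1 without Tcon isotype PBS replicate 1 (0.34) and Tcon isotype 3x replicate 2 (0.33). Lef1 (0.28 ± 0.11, adjusted p = 0.127) passed without Tcon isotype WT IL-2 replicates 1 (0.28) and 2 (0.28) and Tcon MHC II block WT IL-2 replicates 1 (0.26) and 2 (0.28). In the MHC II block arm 3x passed for 4 (24.4% of all genes), Igfbp4 higher (0.44 ± 0.12, adjusted p = 0.0253) and Klf2 (-0.59 ± 0.10, adjusted p = 0.00248), Tcf7 (-0.38 ± 0.10, adjusted p = 0.0238) and Lef1 (-0.32 ± 0.11, adjusted p = 0.0588) lower. S1pr1 did not pass there (-0.19 ± 0.11, adjusted p = 0.257), so no member passed in opposite directions in the 2 arms. Igfbp4 was lost without Tcon MHC II block PBS replicate 1 (0.36) and Tcon MHC II block 3x replicate 1 (0.41), Tcf7 without Tcon MHC II block PBS replicate 1 (-0.37) and Tcon MHC II block 3x replicate 2 (-0.30) and Lef1 without Tcon MHC II block PBS replicates 1 (-0.39) and 2 (-0.26) and Tcon MHC II block 3x replicates 1 (-0.35) and 2 (-0.30). Dapl1 (-0.42 ± 0.22) passed there without Tcon isotype WT IL-2 replicates 1 (-0.42) and 2 (-0.42).

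The difference between the arms under 3x passed in Tcons for 4 of 7, all lower with MHC II block (18.2% of all genes): S1pr1 (-0.63 ± 0.15, SE, adjusted p = 0.0220), Lef1 (-0.61 ± 0.15, adjusted p = 0.0232), Tcf7 (-0.60 ± 0.14, adjusted p = 0.0171) and Klf2 (-0.45 ± 0.14, adjusted p = 0.0641). The Klf2 call was lost without Tcon isotype PBS replicate 1 (-0.41), Tcon isotype 3x replicate 2 (-0.35), Tcon MHC II block PBS replicates 1 (-0.45) and 2 (-0.45) and Tcon MHC II block 3x replicate 1 (-0.37) and with total counts (-0.38, adjusted p = 0.103). Satb1 (-0.36 ± 0.14) passed without Tcon isotype WT IL-2 replicates 1 (-0.36) and 2 (-0.36) and Tcon MHC II block 3x replicate 1 (-0.47) and with DESeq2 (-0.35, adjusted p = 0.0681), and Dapl1 (-0.54 ± 0.31) without Tcon isotype WT IL-2 replicates 1 (-0.54) and 2 (-0.54). Over all fits that left out 1 library Satb1 ranged from -0.47 to -0.25 and Dapl1 from -0.79 to -0.24. For WT IL-2 none of the 7 passed in edgeR, with 2 at an unadjusted p under 0.05 and 2 called by DESeq2 (12.8% of all genes), S1pr1 (-0.40 ± 0.16) and Tcf7 (-0.40 ± 0.14). In edgeR S1pr1 passed without Tcon isotype WT IL-2 replicate 1 (-0.54) and Tcon MHC II block WT IL-2 replicate 2 (-0.54), and Tcf7 without Tcon isotype WT IL-2 replicate 1 (-0.46) and Tcon MHC II block WT IL-2 replicate 2 (-0.56). Over all fits that left out 1 library S1pr1 ranged from -0.54 to -0.24 and Tcf7 from -0.56 to -0.25. For H16R none passed in edgeR, none had an unadjusted p under 0.05 and DESeq2 called none (8.45% of all genes). A fit without 1 library assumes that the remaining library of its group varies like the other groups.

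The order of the 8 Treg groups by mean level differed between members, and most neighbours in an order overlapped in range. For Klf2 6 of 7 neighbouring pairs overlapped, the exception being MHC II block 3x below MHC II block H16R, and for S1pr1 the 1 pair without overlap separated the 4 mutein groups from the other 4. Igfbp4 had 2 such steps, from isotype 3x (82.5 ± 25.4 CPM) to isotype PBS (52.2 ± 3.06 CPM) and from MHC II block 3x (47.8 ± 7.74 CPM) to the WT IL-2 and H16R groups (all SD, n = 4). The lowest Lef1 group was MHC II block 3x and the lowest Satb1 group isotype WT IL-2, each apart from its neighbour. Tcf7 and Dapl1 ranges overlapped at all 7 steps.

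Genes with related roles were read from lists chosen, like the 7 genes, with earlier results of these data known, with 3x against PBS in Tregs as the comparison and medians over all tested genes of -0.01 with isotype and -0.04 with MHC II block. Of 9 other KLF genes, 3 fell and 3 rose with isotype, and 4 fell and 2 rose with MHC II block (medians 0.09 and -0.12). Over all genes 63.6% passed with isotype, 73.0% with MHC II block and 39.0% in the interaction of 3x, in either direction, so that a list with a share near these says nothing particular to it. Klf4, a brake on T cell proliferation, had a larger change than Klf2, from 598 ± 86.5 CPM after isotype PBS to 274 ± 40.4 CPM after isotype 3x (SD, n = 4; -1.11 ± 0.11 on the log2 scale, SE) and -1.74 ± 0.12 with MHC II block. Klf9 (-1.04 ± 0.09 and -1.47 ± 0.10) and Klf6 (-0.34 ± 0.09 and -1.00 ± 0.09) fell in both arms. For 3x the interaction passed for 6 of the 9 (39.0% of all genes), all lower with the block, Klf4 (-0.63 ± 0.16) and Klf6 (-0.66 ± 0.13) among them.

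Among 10 genes of S1P sensing and egress, S1pr4, a further S1P receptor of lymphocytes, rose as S1pr1 did, by 1.11 ± 0.09 with isotype and 1.11 ± 0.08 with MHC II block (log2, SE). S1pr3 fell with isotype (-2.25 ± 0.32; 3.95 ± 0.863 CPM after PBS) and had a change of -0.29 ± 0.31 (adjusted p = 0.415) with the block. Cd69, named after its values were seen and known as the protein that removes S1PR1 from the cell surface, rose with isotype (0.30 ± 0.08) and fell with the block (-0.19 ± 0.08), and its interaction passed (-0.48 ± 0.11). In all 4 of the 10 rose and 3 fell with isotype, and 5 rose and 3 fell with MHC II block, against 63.6% and 73.0% of all genes in either direction (medians 0.08 and 0.06).

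Of 6 homing and naive cell receptors, Ccr7, the chemokine receptor that guides T cells into lymph nodes, fell under 3x with isotype (-0.51 ± 0.13, SE) and with the block (-1.43 ± 0.13), as did Cxcr4 (-0.62 ± 0.11 and -1.14 ± 0.12). The list split 3 up and 3 down with isotype and 1 up and 5 down with the block (63.6% and 73.0% of all genes in either direction), and 5 of 6 interactions passed (39.0% of all genes), all lower (median -0.53).

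Quiescence and naive state regulators numbered 14. With isotype 3 rose and 5 fell (median -0.01), and with MHC II block 2 rose and 11 fell (median -0.48), against 63.6% and 73.0% of all genes in either direction, Foxo3, Foxp1, Bach2 and Id3 among those that fell. The interaction passed as lower for 11 and as higher for 1, against 39.0% of all genes (median -0.31). With isotype Myb fell (-1.00 ± 0.08, SE), and Slfn2 (0.50 ± 0.06) and Ets1 (0.41 ± 0.05) rose. The 9 other naive T cell signature genes went 4 up and 0 down with isotype, Rflnb (0.49 ± 0.10), Ly6c1 (0.49 ± 0.12) and Sidt1 (0.42 ± 0.08) leading, and 1 up and 3 down with the block (63.6% and 73.0% of all genes in either direction). Their interaction passed for 7 (39.0% of all genes), 6 of them lower (median -0.66).

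TCF partners and Wnt genes split, 4 of 11 up and 4 down with isotype and 4 up and 5 down with the block (63.6% and 73.0% of all genes in either direction). Tle2, a Groucho corepressor of TCF factors, fell in both arms (-1.40 ± 0.16 and -1.27 ± 0.16, SE), as did Bcl9 (-0.72 ± 0.08 and -0.72 ± 0.08), and the family members Tcf7l1 and Tcf7l2 stayed at or under 2.40 CPM on average in every group. Of 8 relatives of the other members, 4 passed the filter in Tregs, and Igfbp2, Igfbp3 and Igfbp6 were among those that did not. Igfbp7, a low gene at 2.73 ± 0.321 CPM after MHC II block PBS, rose to 12.3 ± 2.63 CPM after MHC II block 3x (2.16 ± 0.16) while it fell with isotype (-0.49 ± 0.17). Of the 14 effector Treg genes, 12 rose under 3x with isotype and 13 with MHC II block, against 63.6% and 73.0% of all genes in either direction (medians 0.79 and 1.00), led by Gzmb (4.43 ± 0.27 and 6.35 ± 0.29), Il1rl1 (2.64 ± 0.13 and 2.60 ± 0.12) and Klrg1 (2.22 ± 0.18 and 1.86 ± 0.18). All named values passed edgeR's quasi-likelihood test unless a p is given, and these comparisons share the PBS and 3x libraries used for the 7 genes.

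The genes whose level most resembled the mean standardized level of the 7 members over the 32 Treg libraries were Rab3ip (r = 0.885), Scml4 (0.883), Nsg2 (0.874), Acvr1b (0.858) and Slc22a5 (0.856). Those most opposed were Sec24d (-0.855), Srpr (-0.849), Arfgap3 (-0.844), Icam1 (-0.837) and Atf6 (-0.819). These are Pearson correlations that describe 8 groups of libraries, picked as extremes among 12385 genes, and genes of 1 library share its depth and scaling. Nsg2 is also 1 of the 9 naive signature genes listed. Within the set, the correlation of a member with the mean of the other 6 was highest for Lef1 (0.772) and negative for S1pr1 alone (-0.247).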

How the data were processed

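RNA of 32 Treg and 16 Tcon libraries was sequenced by the authors, who aligned reads with OSA in Omicsoft Array Suite to mouse genome B38 and quantified genes with RSEM. The deposited matrices hold expected counts per gene, of which 72.6% of the nonzero values were whole, and FPKM normalized by the authors for length and depth. Deposited tables of the authors' own DESeq2 comparisons (version 1.30.1), with log2 fold changes, test statistics and FDR values, were not used.

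The 7 genes, the gene lists and the tests were chosen with earlier results of these data known. Expected counts were rounded and TMM-scaled in edgeR (version 4.0.16, R 4.3.3), and levels were given as CPM. Protein-coding genes (GENCODE vM21) with CPM above 0.5 in at least 4 fitted libraries were tested, 12392 in Tregs, 12844 in Tregs against Tcons and 12526 in Tcons, and 29 genes with an empty cell were left out of the Treg fit. Comparisons were contrasts in the quasi-likelihood test of edgeR, with Benjamini-Hochberg adjusted p-values across every gene tested and a threshold of 0.1. The SE was the log2 fold change divided by the root of F, and approximate 95% intervals were 1.96 SE to either side. Fits of Tregs against Tcons held the mouse as a block, since both libraries came from 1 animal and their deviations from the group means correlated in all 16 pairs (r of 0.153 to 0.552). Alternatives used limma (version 3.58.1) on log2(FPKM + 1) or log2(FPKM + 0.1), DESeq2 (version 1.42.0), other scalings and filters, thinning of every Treg library to 18279758 counts, and leaving out each library or, in fits of Tregs against Tcons, each mouse. A fit of the 8 Tcon group means, which gave 3x within each antibody arm and the differences between arms, was added after seeing the data. The scripts were tested on simulated data with known changes.

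All 7 members were named, with up to 3 genes per list that had the largest called change under 3x with isotype, relatives of a member, and the 5 genes most and least like the mean of the members. Some genes of the lists are not reported here. Levels rest on 18.28 to 51.24 M expected counts per Treg library (median 40.71 M) and 31.31 to 51.95 M per Tcon library (median 38.24 M).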

Additional observations from a re-analysis of the deposited data

Results flagged for a closer look

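Among 56 sets of 4 Treg libraries (7 genes in 8 groups), 2 held a library far from the other 3 by Dixon's criterion at 95%, where chance flags about 1 in 20. S1pr1 was 381 CPM in MHC II block 3x replicate 2, the lowest of its group, and Tcf7 was 380.3 CPM in isotype WT IL-2 replicate 3b, also the lowest of its group.

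The response to 3x differed between the antibody arms, by the test of the difference itself, for Dapl1 (-1.23 on the log2 scale), Igfbp4 (-0.68), Tcf7 (-0.64), Lef1 (-0.63), Klf2 (-0.47) and Satb1 (-0.35), each lower with MHC II block. The response to H16R differed for Tcf7 (-0.46) and Lef1 (-0.37). In Tcons, by a test added after the values were seen, the response to 3x differed between the arms for S1pr1 (-0.63), Lef1 (-0.61), Tcf7 (-0.60) and Klf2 (-0.45), each lower with MHC II block, the last lost with total counts (-0.38, adjusted p = 0.103).

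The response also differed between Tregs and Tcons. For S1pr1 the gap moved by 0.53 under WT IL-2, 0.86 under H16R and 0.73 under 3x, toward the Treg side, each pooled over both antibody arms. Under 3x the arms did not overlap, with Treg S1pr1 at 87.8% and 77.3% of the Tcon level in isotype mice and 119.8% and 108% in MHC II block mice. Under H16R the gap moved for Igfbp4 (-1.11) and Lef1 (0.22), the Lef1 call being lost with total counts (0.14, adjusted p = 0.248) and with limma on log2(FPKM + 1) (0.05, adjusted p = 0.723), and under 3x for Tcf7 (-0.59) and Satb1 (-0.33). The causes of these differences were not tested.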

How the results depend on the processing

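No member's call reversed its direction under any alternative. Values given here are counts of the 7 members called. A further demand for a log2 fold change of 1 or more in size, which by construction removes smaller changes, left 1 call for 3x against H16R in both arms, for 3x against WT IL-2 with isotype, for H16R against PBS in both arms, for WT IL-2 against PBS with isotype and for the 3x interaction, and 0 for 3x against PBS in both arms, 3x against WT IL-2 with MHC II block, H16R against WT IL-2 in both arms, WT IL-2 against PBS with MHC II block, MHC II block against isotype under WT IL-2, H16R and 3x, and the H16R interaction. The WT IL-2 interaction had 1 call, in place of 0, with DESeq2, total counts, both forms of limma on FPKM, no filter and thinned libraries. MHC II block against isotype in PBS Tregs had 1 with DESeq2, total counts, only the groups compared, and both libraries that stood apart left out, and 3 with either form of limma. Under WT IL-2 it had 2, in place of 4, with only the groups compared and without the libraries that stood apart. In Tcons, WT IL-2 had 7 in place of 4 with DESeq2 and total counts, and 3x had 2 in place of 1 with DESeq2, total counts and limma. In the fit of Tcon group means, added after seeing the data, the WT IL-2 interaction had 2 in place of 0 with DESeq2. The gap under WT IL-2 had 3 with DESeq2 and 2 with limma, in place of 1. The causes were not tested.

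Further calls of single genes were lost, with the log2 fold change of each fit, as follows. Without a filter on low counts these were Tcf7 under H16R with isotype (-0.17, adjusted p = 0.107), Dapl1 under 3x with isotype (0.40), Satb1 under H16R with MHC II block (-0.17, adjusted p = 0.103) and S1pr1 for 3x against H16R with MHC II block (0.20, adjusted p = 0.103). With all biotypes they were the same Satb1 call (-0.15, adjusted p = 0.139) and S1pr1 for 3x against H16R with isotype (0.23). With only the groups compared they were Dapl1 under 3x with isotype (0.36, adjusted p = 0.152), Lef1 under WT IL-2 with MHC II block (-0.20, adjusted p = 0.120) and, for MHC II block against isotype under WT IL-2, Klf2 (-0.24, adjusted p = 0.182) and S1pr1 (-0.19, adjusted p = 0.177). That Klf2 call was also lost with limma on log2(FPKM + 1) (-0.21, adjusted p = 0.126), and Lef1 under H16R with isotype with total counts (0.10, adjusted p = 0.224). Calls gained included Klf2 under WT IL-2 with MHC II block with total counts (-0.23, adjusted p = 0.0727), limma on log2(FPKM + 1) (-0.23, adjusted p = 0.0794) and only the groups compared (-0.19, adjusted p = 0.0260), Dapl1 in the H16R interaction with DESeq2 (-0.66, adjusted p = 0.0974), Igfbp4 for MHC II block against isotype under WT IL-2 with limma on log2(FPKM + 1) (0.35, adjusted p = 0.0831) and Lef1 in the gap under 3x with limma on log2(FPKM + 1) (-0.23, adjusted p = 0.0453).

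Leaving out 1 library, or 1 mouse with both its libraries for the gap, gave 0 to 1 calls when the antibodies were compared in PBS Tregs, 1 to 4 in WT IL-2 Tregs, 1 to 3 and 3 to 5 for 3x against H16R with isotype and MHC II block, 0 to 1 for the WT IL-2 interaction, 0 to 3 for the gap under WT IL-2, and in Tcons 3 to 7 for WT IL-2, 1 to 3 for 3x and 1 to 2 for MHC II block. In the fit of Tcon group means it gave 1 to 4 for 3x with isotype, 1 to 5 for 3x with MHC II block and 0 to 2 for the WT IL-2 interaction. For 3x, 6 to 7 interactions passed.

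The number of all genes called moved by over 1.5 times without 1 library, or without 1 mouse for the gap, in these comparisons. In Tregs it came to 1106 to 2066 in place of 1751 for the 2 antibodies compared after PBS, 2496 to 4481 in place of 3799 for the same after H16R, 907 to 2712 in place of 2309 for H16R against WT IL-2 with isotype, 591 to 1765 in place of 1429 for 3x against H16R with isotype, 1975 to 3674 in place of 3127 for 3x against H16R with MHC II block, 1488 to 3593 in place of 2363 for the H16R interaction and 246 to 3212 in place of 1567 for the gap under WT IL-2. In Tcons it came to 1753 to 5397 in place of 3412 for WT IL-2, 2239 to 4872 in place of 3894 for H16R, 513 to 2218 in place of 1238 for 3x and 2128 to 4971 in place of 3622 for MHC II block, and in the fit of group means to 587 to 3355 in place of 1815 for 3x with isotype, 1164 to 5433 in place of 3061 for 3x with MHC II block, 926 to 4820 in place of 1601 for the WT IL-2 interaction, 746 to 1923 in place of 1059 for the H16R interaction and 1159 to 4397 in place of 2284 for the 3x interaction. The other comparisons stayed within 1.5 times.

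The replicate numbers did not pair the Treg libraries: same-numbered libraries correlated at r of -0.48 to 0.66 in their deviations, and 11 of 32 correlated best with their own number. With the number as a replicate block, MHC II block against isotype in PBS Tregs had 1 call in place of 0, that of Tcf7 (0.21, adjusted p = 0.0968). In total 3 of 161 member calls changed, the others being Klf2 for MHC II block against isotype under WT IL-2, which was lost (-0.22, adjusted p = 0.128), and Dapl1 in the H16R interaction, which was gained (-0.70, adjusted p = 0.0862). Scaling to total counts moved the median log2 fold change of all genes by at most 0.085. Depth limits Dapl1 most, with 30 to 165 expected counts per Treg library.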
